A study of Rattus norvegicus with 18 samples.

Results

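The constitutive proteasome subunits are the genes that encode the standard parts of the proteasome, without the immune catalytic subunits. The members were 34 named genes: 14 of the core particle, 9 of the base, 8 of the lid and 3 chaperones that assist assembly of the base. A gene was measured where a probe set of the array carried its symbol and no other, and where several did, the probe set with the highest mean was taken. This gave 32 of the 34 members, among 16856 genes with such a probe set. Psma3, of the core, and Psmc3, of the base, lay only on probe sets that carried several symbols, so the core had 13 measured members, the base 8, the lid 8 and the assembly chaperones 3. All 32 passed the filter on dim genes, which left 12642 genes to test.

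The proteasome degrades proteins that have been tagged with ubiquitin. Its core is a barrel whose outer alpha rings control entry and whose inner beta rings hold the cutting sites of Psmb5, Psmb6 and Psmb7. The regulatory particle caps the barrel: the base holds a ring of ATPases, encoded by the Psmc genes, that unfold the substrate and thread it into the barrel, and the lid carries Psmd14, the enzyme that removes the ubiquitin chain. In skeletal muscle this system does much of the turnover of contractile proteins, and its genes are widely studied in muscle wasting.

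The transcription factor encoded by Nfe2l1 is known to act on proteasome genes through antioxidant response elements, and the CCAAT box is bound by the factor NF-Y. The 250 bases before the annotated start of each gene were therefore searched, on both strands, for the core of such an element, written TGACNNNGC with N for any base, and for CCAAT. Promoters of 30 of the 34 members were matched by symbol in RefSeq's rat assembly GRCr8, and those of Psma7, Psmd6, Psmd12 and Psmd14 were not. TGACNNNGC was found in 6 of the 30 members, 20% (Psma3, Psmb2, Psmb5, Psmb6, Psmd1 and Psmd9), against 10.17% of the 27457 promoters in the table. CCAAT was found in 16 of the 30, 53.33%, against 34.29% of all promoters, with 9 of 13 in the core (69.23%), 3 of 9 in the base (33.33%), 2 of 5 in the lid (40%) and 2 of 3 in the assembly chaperones (66.67%). The motifs can share bases, as in the Psmb2 promoter, where a match to each overlaps by a base. The 3 stretches that follow are shown because they hold the Nfe2l1-type core outside any annotated gene span. Each is printed 5′ to 3′ on the strand of its gene, with the 9 bases of the match in capitals.
Psmb5: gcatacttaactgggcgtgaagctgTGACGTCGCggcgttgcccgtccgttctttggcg
Psmd1: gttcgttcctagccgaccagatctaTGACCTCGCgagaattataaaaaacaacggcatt
Psmd9: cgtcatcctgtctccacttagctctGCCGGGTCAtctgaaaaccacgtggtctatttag
The Psmb5 stretch is chr15:32047406-32047464, the gene lies on the minus strand, and the match begins 60 bases before the start. The Psmd1 stretch is chr9:94157781-94157839, the gene lies on the plus strand, and the match begins 165 bases before the start. The Psmd9 stretch is chr12:39018355-39018413, the gene lies on the minus strand, and the match, which begins 124 bases before the start, reads on the opposite strand from the gene. A match describes these letters only, and binding was not measured.

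Gene expression was measured on arrays of total RNA from extensor digitorum longus, a fast muscle of the lower hind limb, in 18 adult female Sprague-Dawley rats. The rats were grandoffspring, in the second generation, of founder males kept on either diet, chow or high-fat, and for 12 weeks the rats themselves ate chow or a high-fat diet with 42 to 45% of energy from fat. Group names give the grandfather's diet first and the rat's own diet second: chow/chow (n = 5), chow/high-fat (n = 5), high-fat/chow (n = 4) and high-fat/high-fat (n = 4). Age in weeks and the number of founder males are not given in the sources used here, and each array is taken to be 1 animal. Animals are counted as independent in all comparisons, although some may share a grandfather, and p-values measure the spread between these animals. The animal numbers in the array titles form 8 neighbouring pairs, each a rat on chow and a rat on the high-fat diet from the same lineage. Whether paired rats are relatives is not given, and they were treated as blocks only among the alternative settings. A lower signal in whole muscle can come from fewer cells of a type or from less RNA per cell, and these cannot be told apart here.

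The skeletal muscle genes Acta1, Ckm, Tnnt3 and Actn3 had mean log2 signals between 12.93 and 13.19, far above the dim-gene limit of 5.28. The log2 median of the deposited arrays ranged over 0.43, so values were quantile normalized, and counts of members below 0 are also given under other scalings. As deposited, the median difference over all genes was -0.13 for own diet in the chow lineage, 0.11 for own diet in the high-fat lineage and 0.18 for grandpaternal diet at own high-fat. Markers of leukocytes (11 measured) and of fibroblasts and matrix (10 measured) were lower on the animal's own high-fat diet in the average over lineages, for 11 of 11 and 10 of 10 genes, with medians of -0.22 and -0.22, and none of them passed limma's adjusted threshold. Per animal, the mean log2 signal of the leukocyte list lay between 7.02 and 7.44 on own chow and between 6.89 and 7.27 on own high-fat, and that of the fibroblast list between 8.96 and 9.53 and between 8.55 and 9.25. Their part in the results on own diet was not tested. Fast fibre markers (6 measured) had a median difference of -0.029 in the same comparison.

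After quantile normalization the within-group SD of the log2 signal had a median of 0.11 over the 32 members, beside 0.14 over all 12642 genes. The members lay between the 44.7th and 98.8th percentile of mean signal, and the 2 medians were not matched for signal. The spread rests on the scaling. In high-fat/chow the SD of the mean over all members was 0.051 here, 0.14 with each array set to the same median and 0.23 as deposited. The ATPase Psmc2 had the lowest within-group SD, 0.059, and the beta subunit Psmb3, a structural part of the beta ring, the highest, 0.24. By subcomplex the median SD was 0.12 for the core, 0.10 for the base and 0.10 for the lid. Psmb5, which encodes the chymotrypsin-like cutting subunit, was the steadiest member of the core, with an SD of 0.059. Its log2 signal was 11.11, 11.02, 11.16, 11.18 and 11.10 in chow/chow, 11.08, 11.19, 11.01, 11.23 and 11.09 in chow/high-fat, 11.10, 11.04, 11.05 and 11.09 in high-fat/chow and 11.11, 11.07, 11.09 and 11.08 in high-fat/high-fat. All 4 groups overlapped, and the group means ran only from 11.07 to 11.12. Psmb3 ranged from 9.79 to 10.58 over the 18 animals, with a wide spread in every group.

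**Figure D1:**
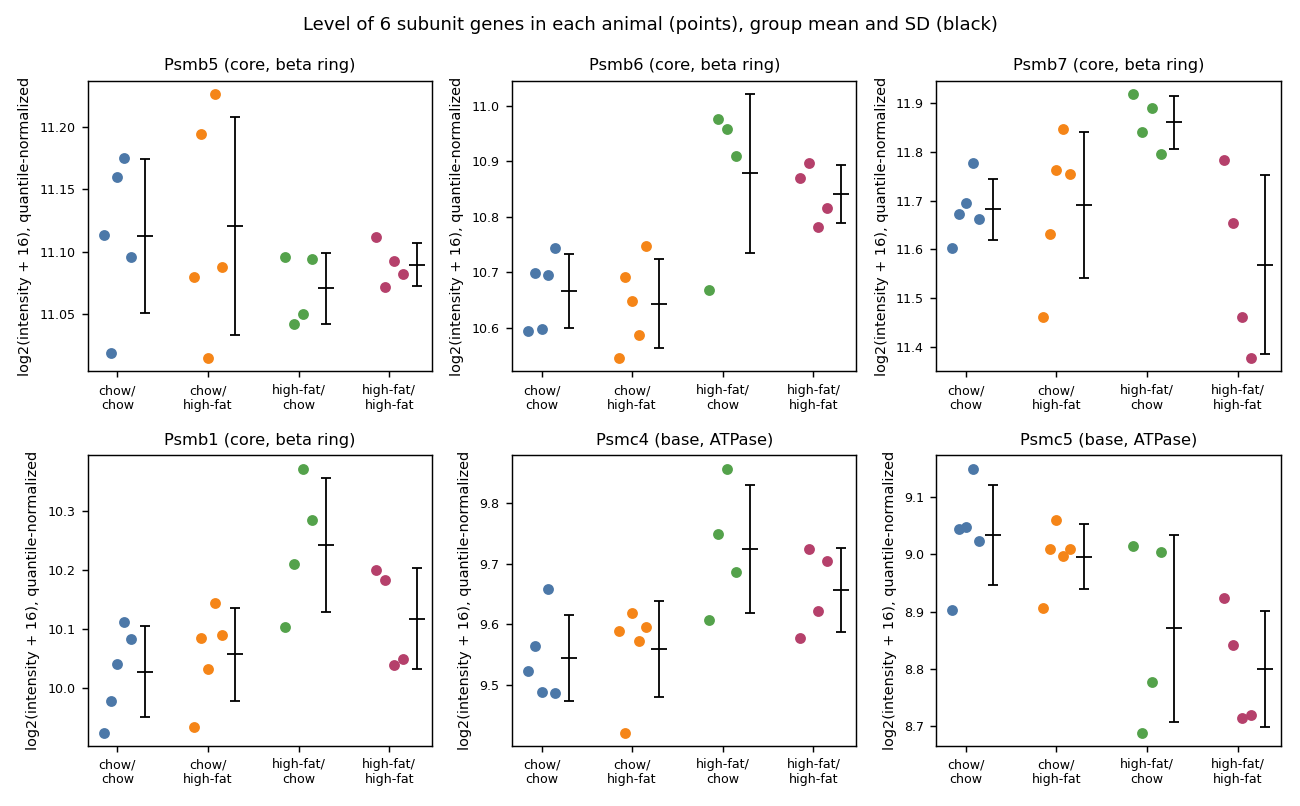
Log2(intensity + 16) after quantile normalization in each of the 18 animals, by group, for Psmb5, Psmb6, Psmb7, Psmb1, Psmc4 and Psmc5; points are animals and black marks are the group mean and SD, and each panel has its own axis. Psmb6 lies between 10.55 and 10.75 in both groups of the chow lineage and between 10.67 and 10.98 in the high-fat lineage, while the 4 groups overlap for Psmb5.

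The first comparison asked whether the rat's own high-fat diet altered proteasome genes where the grandfather had eaten chow. No difference was found at this number of animals. By limma with Benjamini-Hochberg adjustment over all 12642 genes, 0 of 32 members and 0% of all genes passed an adjusted p of 0.05. At an unadjusted p under 0.05 there were 0 members, beside 4.8% of all genes. No member's groups were free of overlap, which held for 0.759% of all genes. The median log2 difference was 0.0069 over the members, 0.029 in the core, -0.017 in the base and -0.0050 in the lid, beside -0.0031 over all genes. The 6 measured alpha ring genes, which form the gate of the barrel, had 0 of 6 differences below 0, with a median of 0.058, and 0 of 6 passed the test. Probe sets that Psma3 shares with Psma3l, which entered no test, gave -0.020 and 0.034. Over all members 14 of 32 lay below 0, beside 51.4% of all genes, and this count rests on the scaling: it was 16 after loess, 22 with each array set to the same median and 32 as deposited. As deposited, where all genes moved by -0.13, all 6 alpha ring differences were negative too. The 4 members with the smallest p were Psma5 of the alpha ring, at 0.15 (SE 0.10), the chaperone Psmd9, at -0.12 (SE 0.092), the base scaffold Psmd1, at -0.065 (SE 0.059), and Psmd8 of the lid, at -0.070 (SE 0.067). Each had an adjusted p of 0.9996. The sign of the Psma5 difference turned as deposited, to -0.012, and that of Psmd8 turned to 0.019 with the array median as a covariate.

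Where the grandfather had eaten the high-fat diet, proteasome genes had mostly lower means in rats on the high-fat diet than in rats on chow. The difference was below 0 for 27 of 32 members, beside 50.4% of all genes, with a median of -0.080 over the members beside -0.0013 over all genes. It was lower in the core, with a median of -0.14, than in the base, with -0.069, or the lid, with -0.064, and this order was not tested. Again 0 of 32 members and 0% of all genes passed limma's adjusted threshold. At an unadjusted p under 0.05 there were 4 members, 1 higher and 3 lower, which is 12.5% of the members beside 9.25% of all genes. The count below 0 depended on the scaling: it was 26 of 32 after loess between arrays, 21 of 32 with each array set to the same median, and 8 of 32 as deposited, where all genes moved by 0.11.

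Within the core, the alpha and beta rings had different medians. All 6 alpha ring genes had negative differences with a median of -0.18, while the beta ring had 3 positive and 4 negative, with a median of -0.037. None of the 13 passed the test, and the difference between the rings was not tested. With arrays centred on their medians, the alpha ring still had 6 of 6 below 0, and as deposited 4 of 6. The probe sets that Psma3 shares with Psma3l, which entered no test, gave -0.13 and -0.23, and the probe set that Psmc3 shares with Slc39a13 gave -0.25.

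The smallest p belonged to Psmb7, which encodes the trypsin-like cutting subunit. Its log2 signal was 11.92, 11.84, 11.89 and 11.80 in high-fat/chow and 11.78, 11.65, 11.46 and 11.38 in high-fat/high-fat. Every high-fat/chow animal lay above every high-fat/high-fat animal, although the nearest, at 11.80 and 11.78, were close. The difference was -0.29 (SE 0.089, 95% confidence interval -0.48 to -0.11), with an adjusted p of 0.378 by limma, and leaving out 1 animal at a time gave -0.36 to -0.23. In the chow lineage Psmb7 was 11.60, 11.67, 11.69, 11.78 and 11.66 in chow/chow and 11.46, 11.63, 11.76, 11.85 and 11.76 in chow/high-fat. These groups overlapped fully, and the difference there was 0.0095 (SE 0.080).

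Next came Psmd9, a chaperone of base assembly, with a difference of 0.29 (SE 0.10, adjusted p = 0.434), then Psma2, at -0.30 (SE 0.13, adjusted p = 0.501), and Psma7, at -0.24 (SE 0.10, adjusted p = 0.501), both of the alpha ring. On the quantile-normalized arrays Psmd9 ran opposite to most members: it was 8.58, 8.40, 8.61 and 8.44 in high-fat/chow and 8.66, 8.64, 8.84 and 9.04 in high-fat/high-fat. All animals of the second group lay above all of the first. The Psmd9 difference stayed above 0 in all 33 other settings. As deposited only 8 of 32 members lay below 0, so there Psmd9 went with most members. Psma2 was 9.68, 9.16, 9.19 and 9.30 in high-fat/chow and 9.36, 9.09, 8.91 and 8.75 in high-fat/high-fat, and the groups overlapped, with 1 high animal in the first and 1 in the second. Groups were free of overlap for 5 of 32 members, 15.6%, beside 4.12% of all genes. These were Psma6, Psmb7, the ATPase Psmc1 and Psmd12 of the lid, all lower, and Psmd9, higher. Leukocyte and fibroblast markers were lower in the same comparison for 11 of 11 and 10 of 10 genes, with medians of -0.21 and -0.27, and their part in it was not tested.

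**Figure D2:**
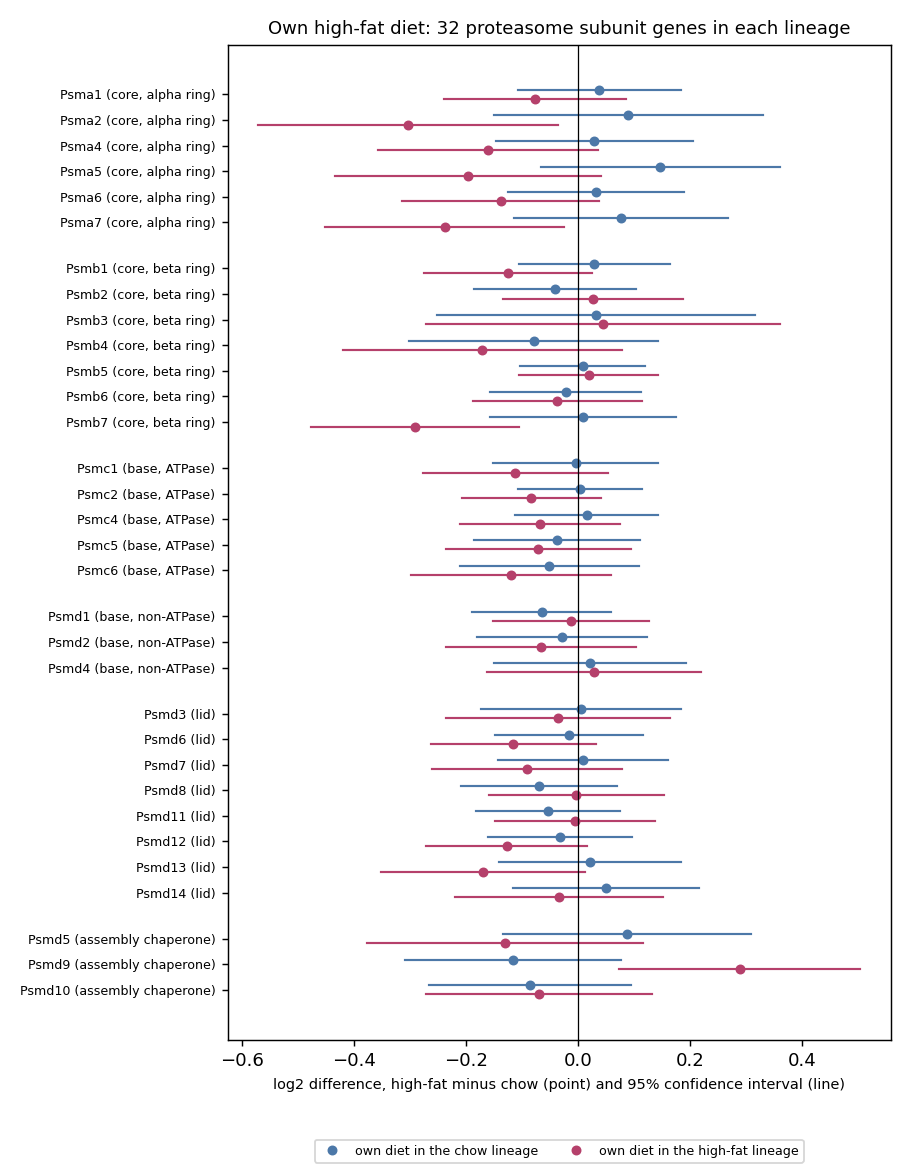
Log2 difference, own high-fat minus own chow, for the 32 measured members, with points for the difference and lines for its 95% confidence interval, in the chow lineage and in the high-fat lineage. In the high-fat lineage 27 of 32 points lie below 0 (8 of 32 as deposited) and in the chow lineage 14 of 32 (32 of 32 as deposited). The order of these counts depends on the scaling.

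The interaction, the own-diet difference in the high-fat lineage minus that in the chow lineage, tested directly whether the lineages differed. It called 0 of 32 members and 0% of all genes by limma. At an unadjusted p under 0.05 there were 5 members, 15.6%, 1 higher and 4 lower, beside 6.83% of all genes. The median was -0.085 over the members, -0.15 in the core, -0.052 in the base and -0.089 in the lid, beside 0.0042 over all genes, and 23 of 32 lay below 0, beside 48.9% of all genes. The alpha ring had 6 of 6 below 0 with a median of -0.25, and 2 of 6 as deposited. The members named by p were Psmd9 (0.41, SE 0.14, adjusted p = 0.649), Psmb7 (-0.30, SE 0.12, adjusted p = 0.658), Psma7 (-0.32, SE 0.14, adjusted p = 0.695) and Psma2 (-0.39, SE 0.17, adjusted p = 0.695). As deposited, where the median over all genes was 0.24, 3 of 32 lay below 0 and the Psma7 value was 0.0046. With arrays centred on their medians 15 of 32 lay below 0, so the direction over all members rests on the scaling, while the alpha ring kept 6 of 6 there.

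Averaged over both lineages, own high-fat diet gave small negative differences. They were below 0 for 27 of 32 members, beside 51.7% of all genes, with a median of -0.041 (all genes -0.0028) and medians of -0.048, -0.044 and -0.039 in the core, base and lid. By limma 0 of 32 were called, beside 2 genes or 0.0158% of all genes, and 1 member, 3.12%, had an unadjusted p under 0.05, beside 6.73%. That member was Psmb7 (-0.14, SE 0.060, adjusted p = 0.718). Psmd12 (-0.080, SE 0.046, adjusted p = 0.806), Psmb4 of the beta ring (-0.13, SE 0.080, adjusted p = 0.817) and the ATPase Psmc6 (-0.085, SE 0.057, adjusted p = 0.834) followed. The count below 0 was 25 with each array set to the same median, 27 after loess and 27 as deposited. The lineages behind this average changed places with the scaling. As deposited 32 of 32 lay below 0 in the chow lineage and 8 of 32 in the high-fat lineage. After quantile normalization these counts were 14 and 27.

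The lid scaffold Psmd12 was 10.17, 10.24, 10.35, 10.36 and 10.22 in chow/chow and 10.07, 10.21, 10.27, 10.37 and 10.26 in chow/high-fat. In the high-fat lineage it was 10.34, 10.31, 10.27 and 10.25 on chow and 10.15, 10.22, 10.22 and 10.07 on high-fat. The groups overlapped in the chow lineage and were apart in the high-fat lineage. Psmb4 was 9.39, 9.60, 9.39, 9.69 and 9.62 in chow/chow, 9.30, 9.37, 9.66, 9.30 and 9.66 in chow/high-fat, 9.56, 9.63, 9.92 and 9.88 in high-fat/chow and 9.80, 9.73, 9.36 and 9.42 in high-fat/high-fat. It overlapped in both lineages, with wide spread in all groups. Psmc6 was 9.18, 9.37, 9.41, 9.23 and 9.19 in chow/chow, 9.11, 9.05, 9.32, 9.30 and 9.34 in chow/high-fat, 9.25, 9.24, 9.17 and 9.33 in high-fat/chow and 9.26, 8.94, 9.22 and 9.08 in high-fat/high-fat. Its lowest animals were on the high-fat diet in each lineage, and the groups overlapped.

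The comparison of grandfathers' diets in rats on chow used the chow/chow and high-fat/chow animals, which also serve in the comparisons of own diet. It called 0 of 32 members, beside 1 gene or 0.00791% of all genes, and at an unadjusted p under 0.05 there were 5 members, 15.6%, 4 higher and 1 lower, beside 8.75%. The beta ring had 2 of 7 differences below 0 with a median of 0.18, and the alpha ring 1 of 6 with a median of 0.067. Unlike that median, the probe sets that Psma3 shares with Psma3l, which entered no test, were below 0, at -0.084 and -0.14. Over all members 14 of 32 lay below 0, beside 50.5% of all genes, and 13 after loess, 17 with each array set to the same median and 19 as deposited. The medians were 0.033 over all members, 0.067 in the core, -0.016 in the base and 0.033 in the lid, beside -0.0017 over all genes. The members of smallest p were Psmb1, a structural beta subunit (0.22, SE 0.068, adjusted p = 0.438), Psmb6 (0.21, SE 0.069, adjusted p = 0.438), and the ATPases Psmc4 (0.18, SE 0.065, adjusted p = 0.474) and Psmc5 (-0.16, SE 0.075, adjusted p = 0.560). Groups were free of overlap for 1 of 32, Psmb7, which was higher in high-fat/chow by 0.18 (SE 0.084), beside 3.28% of all genes.

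In rats on the high-fat diet, no member passed the test by grandfather's diet, and the alpha and beta rings had different medians. The alpha ring had 6 of 6 differences below 0 with a median of -0.17 (4 of 6 with each array set to the same median, 3 of 6 as deposited). Its counts here, for own diet in the high-fat lineage and for the interaction share the high-fat/high-fat animals, so they are not separate results. The 6 genes also varied together from rat to rat, as given below. The beta ring had 3 of 7 below 0 with a median of 0.020, and the members as a whole 21 of 32 with a median of -0.041, beside 49.6% of all genes. Over the members the count below 0 was 20 of 32 after loess, 15 of 32 with each array set to the same median and 4 of 32 as deposited. The core, base and lid medians were -0.057, -0.056 and -0.030, beside 0.0011 over all genes. By limma 0 of 32 members and 0% of all genes were called, and 7 members, 21.9%, 2 higher and 5 lower, had an unadjusted p under 0.05, beside 13.3% of all genes. Psma7 had the smallest p (-0.35, SE 0.097, adjusted p = 0.142), followed by Psmb6 (0.20, SE 0.069, adjusted p = 0.213), Psma2 (-0.34, SE 0.12, adjusted p = 0.231) and Psmc5 (-0.20, SE 0.075, adjusted p = 0.262).

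The alpha subunit Psma7 was 9.20, 9.35, 9.49, 9.61 and 9.63 in chow/high-fat and 9.27, 9.09, 9.11 and 8.95 in high-fat/high-fat. The highest animal of the second group, at 9.27, lay above only the lowest of the first. On chow it was 9.28, 9.35, 9.41, 9.56 and 9.31 where the grandfather ate chow and 9.42, 9.16, 9.26 and 9.53 where he ate the high-fat diet, and there the groups overlapped throughout. The only member whose groups were free of overlap on own high-fat diet was Psmb6, 1 of 32, beside 4.71% of all genes. The 2 probe sets shared by Psma3 and Psma3l gave -0.20 and -0.41. As deposited, where all genes moved by 0.18, 3 members were called higher (Psmb6, Psmd8 and Psmd9) beside 1689 genes called. Psmc5 turned to 0.052 there.

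**Figure D3:**
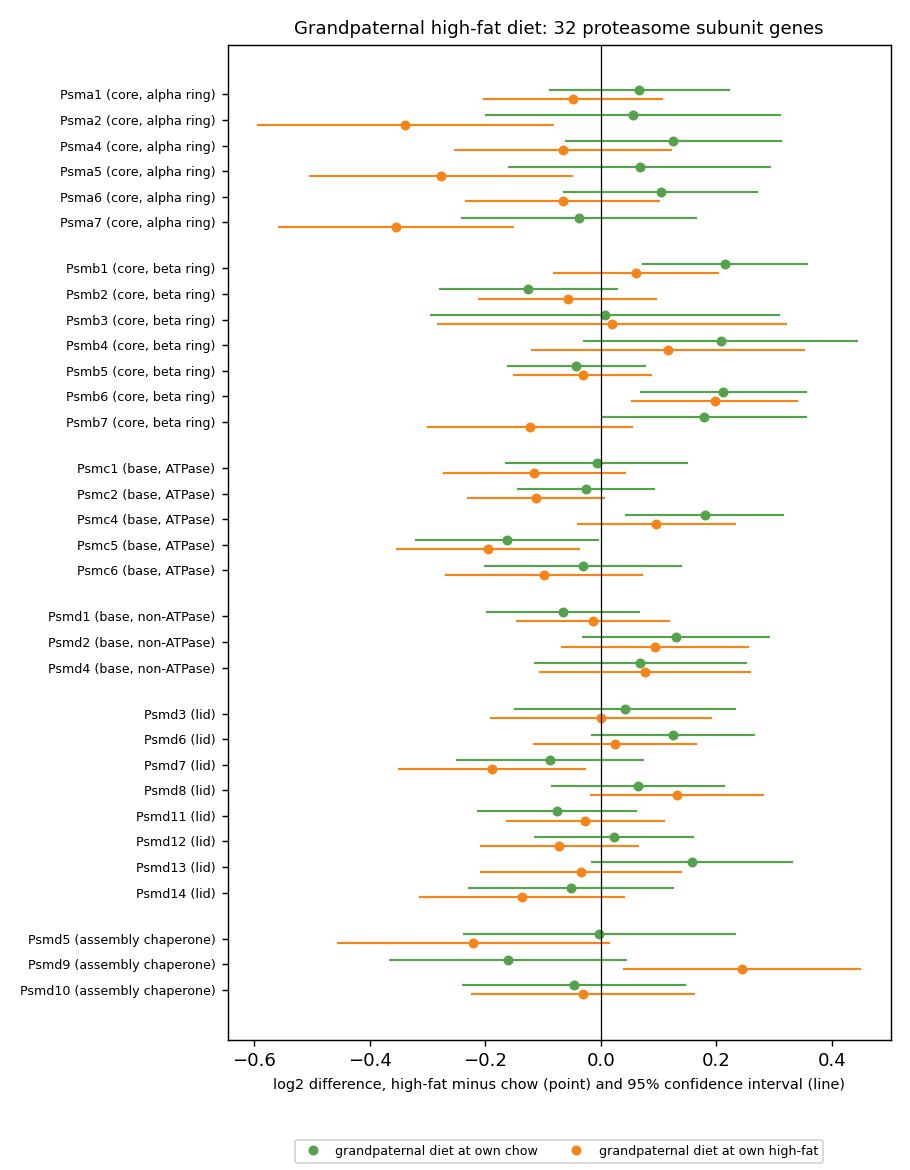
Log2 difference, high-fat minus chow grandfather, for the 32 measured members, with points for the difference and lines for its 95% confidence interval, in rats on chow and in rats on the high-fat diet. Psmb6 lies above 0 in both, at 0.21 and 0.20, and the 6 alpha ring genes all lie below 0 in rats on the high-fat diet, which held for 3 of 6 as deposited.

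Averaged over own diets, Psmb6, which encodes the caspase-like cutting subunit, had the smallest p among the members for grandpaternal diet. Its log2 signal was 10.59, 10.70, 10.60, 10.70 and 10.74 in chow/chow and 10.55, 10.69, 10.65, 10.59 and 10.75 in chow/high-fat. It was 10.67, 10.98, 10.96 and 10.91 in high-fat/chow and 10.87, 10.90, 10.78 and 10.82 in high-fat/high-fat. All animals of the high-fat lineage except 1, at 10.67, lay above all 10 of the chow lineage. The difference was 0.20 (SE 0.048), or 1.15-fold on the log2(signal + 16) scale, with an unadjusted p of 0.00045 and an adjusted p of 0.0792 by limma, so it did not pass the threshold. It passed under 3 of 32 other settings (adjusted p from 0.00917 to 0.206 over them, difference 0.18 to 0.26): with an offset of 64 (0.0499), with array weights (0.0223) and without the high-fat/chow animal at 10.67 (0.00917). Under these 3 settings 38, 252 and 303 of all 12642 genes passed, in the same order. A separate Psmb6 probe set gave 0.17, with 0.21 in rats on chow and 0.14 in rats on the high-fat diet. RefSeq also lists a near copy, Psmb6l1, whose transcripts these probe sets may share, so the source of the signal is uncertain.

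Over the 32 members this comparison called 0, beside 25 genes or 0.198% of all genes, and 6 members, 18.8%, 3 higher and 3 lower, had an unadjusted p under 0.05, beside 14.6%. The count of 25 genes moved with the settings: 0 were called as deposited, 0 with each array set to the same median and 0 with neighbouring animal numbers as a block, and leaving out 1 animal gave 0 to 303, the most without high-fat/chow replicate 1. Differences lay below 0 for 16 of 32 members, beside 51.2% of all genes (17 with each array set to the same median, 9 as deposited), and the median was -0.0074, with 0.014, -0.050 and -0.0015 in the core, base and lid and -0.0027 over all genes. After Psmb6 came Psmc5 (-0.18, SE 0.053, adjusted p = 0.128), Psmc4 (0.14, SE 0.046, adjusted p = 0.169) and Psmb1 (0.14, SE 0.048, adjusted p = 0.187). Psmc4 and Psmc5, neighbours in the ATPase ring, had differences of opposite sign. With array weights Psmc5 passed limma's threshold too (-0.20, adjusted p = 0.0458), beside 252 of all genes.

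The ATPase Psmc5 was 8.90, 9.04, 9.05, 9.15 and 9.02 in chow/chow, 8.91, 9.01, 9.06, 8.996 and 9.01 in chow/high-fat, 9.01, 8.69, 8.78 and 9.003 in high-fat/chow and 8.92, 8.84, 8.71 and 8.72 in high-fat/high-fat. Its lowest animals were in the high-fat lineage, and each pair of groups overlapped. Psmc4 was 9.52, 9.56, 9.49, 9.66 and 9.49 in chow/chow, 9.59, 9.42, 9.62, 9.57 and 9.60 in chow/high-fat, 9.61, 9.75, 9.86 and 9.69 in high-fat/chow and 9.58, 9.72, 9.62 and 9.70 in high-fat/high-fat. Its highest animals were in the high-fat lineage, with overlap in both own diets, and a second Psmc4 probe set gave 0.17 in rats on chow and -0.011 in rats on the high-fat diet. Psmb1 was 9.92, 9.98, 10.04, 10.11 and 10.08 in chow/chow, 9.93, 10.08, 10.03, 10.14 and 10.09 in chow/high-fat, 10.10, 10.21, 10.37 and 10.28 in high-fat/chow and 10.20, 10.18, 10.04 and 10.05 in high-fat/high-fat. Of the 4 high-fat/chow animals 3 were the highest of all 18, and the lowest of them, at 10.10, lay within the range of every other group.

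Subcomplexes were also summarised per animal, as the mean of the members' log2 signals after centring each gene, minus the array's median over all genes. For all 32 members this score was 0.00051 ± 0.049 in chow/chow, 0.0024 ± 0.071 in chow/high-fat, 0.037 ± 0.050 in high-fat/chow and -0.044 ± 0.064 in high-fat/high-fat (mean ± SD, n = 5, 5, 4 and 4). The core gave -0.017 ± 0.052, 0.012 ± 0.096, 0.065 ± 0.065 and -0.061 ± 0.13, in the same order. The base means were 0.012, -0.0048, 0.025 and -0.037, and the lid means 0.0058, -0.0032, 0.033 and -0.039. In each of the core, base and lid the high-fat/chow mean was the highest and the high-fat/high-fat mean the lowest, and the animals of the 4 groups overlapped.

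The alpha ring score spread widely on own high-fat diet. It was 0.068, -0.086, -0.19 and -0.30 in high-fat/high-fat and 0.081, -0.027, 0.013 and 0.16 in high-fat/chow, so 3 of the 4 high-fat/high-fat animals lay below all high-fat/chow animals and 1 did not. In chow/high-fat it ranged from -0.16 to 0.21 and in chow/chow from -0.081 to 0.086. The beta ring score had means of -0.024, -0.032, 0.071 and -0.0042 in the 4 groups. As deposited, and with each array's median over all genes taken off, the score of all members was 0.0066 ± 0.062, -0.011 ± 0.068, 0.030 ± 0.10 and -0.027 ± 0.10. There the SD in the high-fat lineage exceeded every gap between group means, and in the base the lowest mean was that of chow/high-fat, at -0.020.

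**Figure D4:**
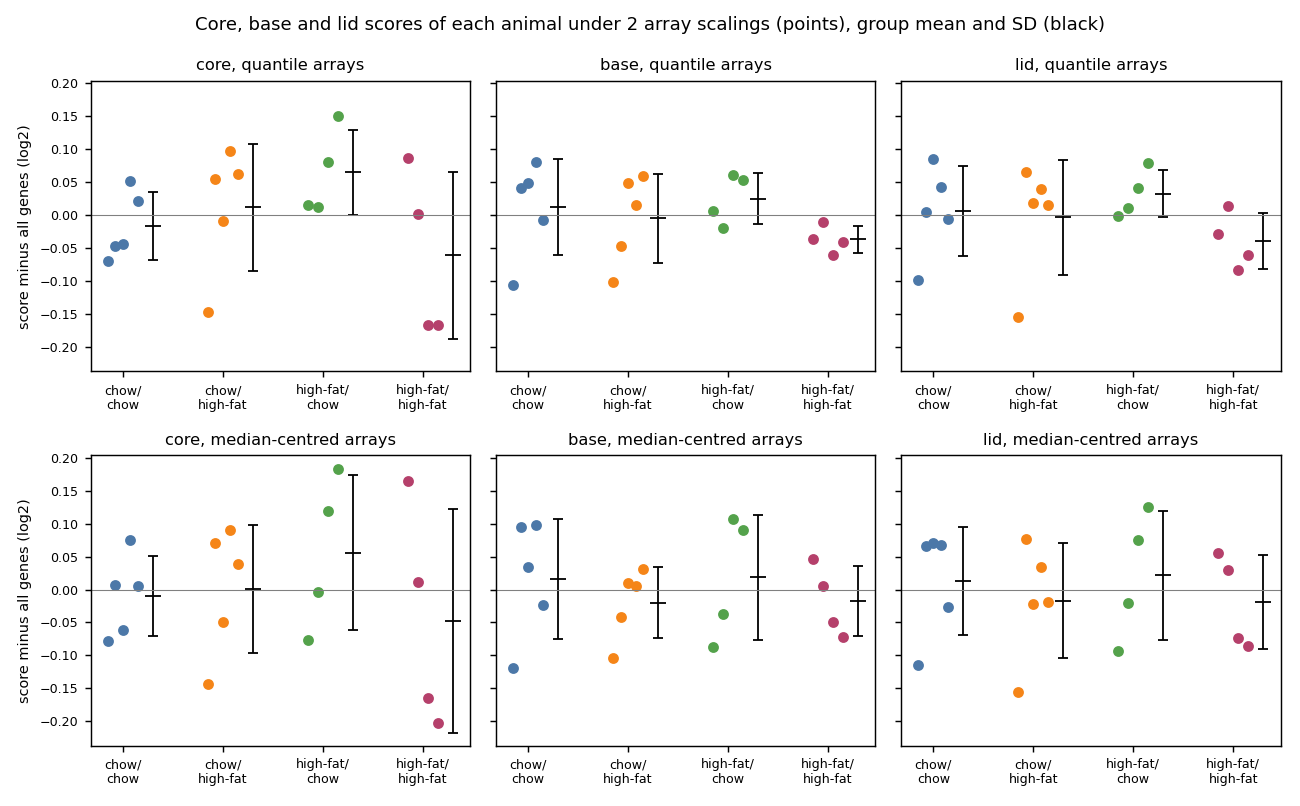
Score of the core, base and lid in each animal, the mean centred log2 signal of the members minus the array's median over all genes, by group, with quantile-normalized arrays in the upper panels and median-centred arrays in the lower; points are animals and black marks are the group mean and SD. The core mean is 0.065 in high-fat/chow and -0.061 in high-fat/high-fat in the upper panel, 0.056 and -0.048 in the lower, and animals of all 4 groups overlap.

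The array titles hold, at or near their end, a letter and a number (5, 7 or 9), whose meaning is not given and which cuts across the groups; in 1 title, that of high-fat/chow animal 2, a further 2 follows it. Within each number, the score of all members was lower in high-fat/high-fat than in high-fat/chow: 0.025 against -0.10 for number 5, 0.0044 against -0.092 for number 7, and 0.094 against 0.0096 for number 9, over 1 or 2 animals each. For the chow lineage, chow/chow and chow/high-fat gave -0.0078 and -0.033 for number 5, and 0.021 and 0.026 for number 7. Psmb6 had the higher mean in the high-fat lineage within each number where both lineages could be compared, over few animals. On own chow it was 10.66 and 10.97 for number 5 (n = 3 and 2), 10.60 and 10.67 for number 7 (n = 1 and 1), and 10.74 and 10.91 for number 9 (n = 1 and 1). The 2 animals of number 7 lay closer together than the SD of Psmb6 in high-fat/chow, 0.14. On own high-fat diet it was 10.57 and 10.78 for number 5 (n = 2 and 1) and 10.70 and 10.82 for number 7 (n = 3 and 1).

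Members varied together from rat to rat. With group means removed, the Pearson correlation over the 18 arrays had a median of 0.25 over the 496 pairs of members, and 75.2% of pairs lay above 0, beside a median of 0 over all pairs of tested genes. It is a description: the pairs share animals, arrays and RNA quality, and it moves with the scaling, to 0.54 with arrays centred on their medians (all genes 0.029) and 0.68 as deposited (all genes 0.248). After quantile normalization the alpha ring was the most uniform set, with all 15 pairs above 0 and a median of 0.59. There the beta ring had a median of 0.28, the base 0.29 and the lid 0.32. Pairs across subcomplexes had medians of 0.16 (core with base), 0.31 (core with lid) and 0.29 (base with lid). As deposited every pair within each of these sets lay above 0. The medians there were 0.78 in the alpha ring, 0.76 in the beta ring, 0.74 in the base and 0.77 in the lid.

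The highest pair was Psma1 with Psma4, at 0.89. Against the mean of the other members, Psmb1 (0.84), Psma1 (0.83) and Psma5 (0.80) had the highest correlations. On the quantile-normalized arrays the chaperone Psmd9 ran against the rest, at -0.55, and its pair with Psmd7 of the lid was the lowest, at -0.62. This rests on the scaling: as deposited 99.2% of all member pairs lay above 0, most of those of Psmd9 among them, and the lowest was -0.22. The other base chaperones gave -0.054 (Psmd10) and 0.57 (Psmd5), so the chaperones did not form a set of their own. Psmb6 had 0.41 and Psmc4 -0.010, both lower than most of the core.

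**Figure D5:**
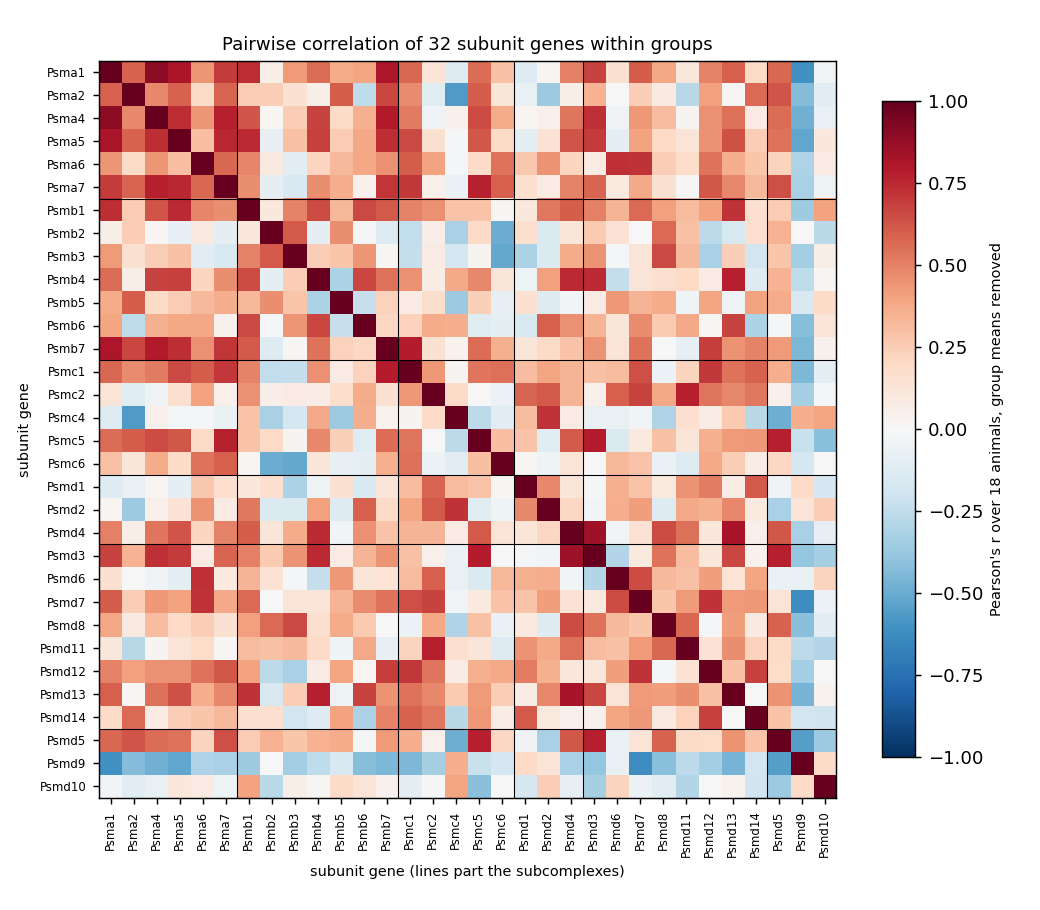
Pearson correlation between members over 18 arrays after removing group means, ordered by subcomplex; colour gives the correlation from -1 to 1. On these quantile-normalized arrays the alpha ring block is positive throughout, with a median of 0.59, and the row of Psmd9 is mostly negative. As deposited 99.2% of all member pairs lie above 0.

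Other genes of the pathway were read from lists of the immune catalytic subunits, activators, core assembly chaperones, ubiquitin receptors and deubiquitinases, regulators of proteasome genes, ubiquitin and its activating enzymes, and muscle ubiquitin ligases. Of 46 listed genes 39 were tested, and limma called 0 in each of the 7 comparisons. The immune subunits Psmb8, Psmb9 and Psmb10, which replace the cutting subunits in immune cells, had 3 of 3 differences below 0 for own diet averaged, with a median of -0.097, and the muscle ubiquitin ligases had 6 above 0 and 5 below, with a median of 0.0020. Among the ligases Fbxo40 (0.18, SE 0.060, adjusted p = 0.571) and Fbxo21 (0.15, SE 0.064, adjusted p = 0.718) had the smallest p. The smallest p for own diet in the chow lineage belonged to Psmb9 (-0.19, SE 0.12) and Fbxo21 (0.14, SE 0.085), each with an adjusted p of 0.9996, and Fbxo21 turned to -0.020 as deposited.

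Larger differences belonged to Psme2, which encodes a subunit of the activator that interferon induces. It was higher in high-fat/high-fat than in high-fat/chow by 0.48 (SE 0.16, adjusted p = 0.399) and than in chow/high-fat by 0.53 (SE 0.15, adjusted p = 0.146), comparisons that share the high-fat/high-fat animals, and its interaction was 0.50 (SE 0.21, adjusted p = 0.687). In the first of these Fbxo40 followed, at 0.26 (SE 0.089, adjusted p = 0.422), and in the second Ubqln1, a shuttle of ubiquitylated proteins, at 0.20 (SE 0.066, adjusted p = 0.189). In that second comparison Psme2 and Ubqln1 passed limma's threshold as deposited, with adjusted p of 0.0202 and 0.0212. There 1689 of all 12642 genes passed, and the median difference over all genes was 0.18.

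Nfe2l1, the factor named with the promoter motif, had a difference of -0.24 between high-fat/chow and chow/chow (SE 0.069, adjusted p = 0.376 by limma). Its groups were free of overlap there, which held for 3.28% of all genes, and its interaction was 0.24 (SE 0.098, adjusted p = 0.687). Nfe2l2, of the same family, had 0.22 (SE 0.10, adjusted p = 0.553) in that comparison of grandfathers' diets. For grandpaternal diet averaged, Ubqln1 (0.13, SE 0.047, adjusted p = 0.188) and Ngly1, an enzyme that processes the Nfe2l1 protein (-0.15, SE 0.053, adjusted p = 0.203), had the smallest p of these lists.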

How the data were processed

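The deposited table holds a linear signal intensity for 20917 probe sets in 18 arrays, which the authors made with Affymetrix Expression Console and PLIER, per the submitters' processing notes (versions are not given in the sources used here). Per the labels' protocols, 200 ng of total RNA was labelled per array. Gene names came from the platform annotation: 18197 probe sets had 1 symbol, 960 several and 1760 none. Here log2(intensity + 16) of the deposited values was quantile normalized, the probe set with the highest mean was kept per gene, and genes with a mean above the 25th percentile were tested. Group means were fitted with limma 3.58.1 in R 4.3.3 over all 18 arrays, with 7 two-sided contrasts and Benjamini-Hochberg adjustment over 12642 genes at 0.05. The code was tested on simulated data. Among the 32 pairs of arrays within groups, at most 0.0908% of values were identical, so no array was counted as a copy. Named genes were the 4 members, and the 2 related genes, of smallest p in each comparison; the cutting subunits and the members of smallest p in the averaged comparisons are given in every animal. Psma7 in every animal, Psma2 and Psmd9 in the high-fat lineage, and the alpha ring as a set, were singled out after their values were seen. The members, lists and tests were chosen with earlier results of these data known. Depth is not defined for arrays, and the number of animals limits the precision. Alternatives covered the scaling, offset, filter, array weights, array median and title number, neighbouring animal numbers as a block, and leaving out each animal.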

Additional observations from a re-analysis of the deposited data

Results flagged for a closer look

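In groups of 4 or 5 animals, the 10 genes given in every animal and 6 scores were looked at for a single animal far from the rest of its group, by Dixon's ratio of gap to range. Of 64 such groups 3 stood out, and chance alone flags about 1 in 20 groups. The ATPase Psmc4 was 9.42 in chow/high-fat animal 2, below the 9.57 to 9.62 of the other 4. The score of all members was -0.12 in chow/high-fat animal 1, below the 0.011 to 0.054 of the others, and the lid score of the same animal was -0.16, below 0.015 to 0.066. The last 2 share an animal and 8 genes.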

How the results depend on the processing

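Under 33 other settings, 18 of them leaving out 1 animal, 224 of 228 counts of called members were 0. Of the others, grandpaternal diet at own high-fat as deposited gave 3, beside 1689 of all 12642 genes called. The rest were for grandpaternal diet averaged: 1 with an offset of 64 (38 of all genes) and 2 with array weights (252 of all genes). Leaving out animals in turn gave 0 to 1 there, the 1 being Psmb6 without high-fat/chow replicate 1 (303 of all genes). Medians relative to all genes kept their sign in every setting for 18 of 28. Those for own diet in the high-fat lineage, over all members, core, base and lid, stayed below 0 in all 33. Several settings could hardly alter such a median. They are leaving out an animal of neither group, fitting the 2 groups alone and changing only the estimate of the spread. As deposited and with arrays centred on their medians it is the same by construction. Medians that moved by more than the spread between animals were the lid for grandpaternal diet at own high-fat (-0.10 with the array median as a covariate) and, for the interaction, all members (-0.024) and the base (0.0020), both as deposited and with arrays centred on their medians. Of 1368 values for named genes 5 reversed: as deposited, Psma5 (-0.012) and Fbxo21 (-0.020) for own diet in the chow lineage, Psmc5 for grandpaternal diet at own high-fat (0.052) and Psma7 for the interaction (0.0046); with the array median as a covariate, Psmd8 for own diet in the chow lineage (0.019). The cause was not tested. The median correlation between members was 0.68 as deposited and 0.54 with arrays centred on their medians, and 0.14 to 0.28 when animals were left out, lowest without chow/high-fat replicate 1. The array titles give the groups no shared replicate numbers. The 8 blocks of neighbouring animal numbers cover 16 animals, and each holds a rat on chow and a rat on the high-fat diet from the same lineage. Fitted as a random block, with an estimated correlation of 0.126, they called 0 members in each comparison. With 4 or 5 animals a group, small differences were not detectable.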
